A study of Mus musculus with 12 samples.

Results

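The genes described are 37 interferon-stimulated genes, chosen by name as well-known members of the interferon response and found, all 37, among the 32742 genes of the deposited table. They were measured by RNA sequencing in primary astrocytes grown from the midbrain of newborn mice, in 12 libraries that form 4 groups of 3. The groups were wild type with PBS (the vehicle), wild type with MPP+, Arrb2 knockout with PBS, and Arrb2 knockout with MPP+. MPP+, the toxic metabolite of MPTP and an inhibitor of mitochondrial complex I, was given at 500 µM for 24 h, and every library carries the time label Day 14. Arrb2 encodes beta-arrestin 2, which dampens and redirects signalling of G protein-coupled receptors. The labels name neither the strain nor the design of the knockout allele, and they do not say whether the 3 samples of a group came from separate cultures or litters, so each p-value measures the spread between these samples, which may be technical.

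Interferons are secreted proteins, and those of type I are made when a cell senses viral or misplaced nucleic acid. Type I interferons bind the receptor of Ifnar1 and Ifnar2, whose kinases Jak1 and Tyk2 phosphorylate Stat2; the complex it forms with Irf9 enters the nucleus, binds the interferon-stimulated response element and raises a broad set of antiviral genes. Interferon gamma acts through Ifngr1 and Ifngr2 and a different element, the gamma-activated site. Astrocytes are known to respond to both kinds of interferon and to release chemokines such as Cxcl10 in inflamed brain.

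The promoters of 6 members that hold a match are printed to show where the response element lies in genes that the results below turn on: Cxcl10, Ifit3 and Isg15 rose with MPP+ in both genotypes, Ifitm3 rose to a different degree in each, Gbp2 fell in wild type, and Igtp was lower in the knockout. Each window runs from 250 bases before to 50 bases after the RefSeq transcript start, on the gene's strand, from RefSeq on GRCm38.p6. Capitals mark every match to the core of the element, GAAANNGAAA or its reverse complement TTTCNNTTTC, where N is any base.
Cxcl10, chr5:92348840-92349139, minus strand: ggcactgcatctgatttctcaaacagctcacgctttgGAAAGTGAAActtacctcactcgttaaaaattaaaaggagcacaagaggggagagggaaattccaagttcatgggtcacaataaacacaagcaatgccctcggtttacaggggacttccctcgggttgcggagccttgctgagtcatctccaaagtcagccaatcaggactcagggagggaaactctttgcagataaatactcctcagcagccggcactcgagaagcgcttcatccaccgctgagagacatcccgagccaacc
Ifit3, chr19:34583279-34583578, plus strand: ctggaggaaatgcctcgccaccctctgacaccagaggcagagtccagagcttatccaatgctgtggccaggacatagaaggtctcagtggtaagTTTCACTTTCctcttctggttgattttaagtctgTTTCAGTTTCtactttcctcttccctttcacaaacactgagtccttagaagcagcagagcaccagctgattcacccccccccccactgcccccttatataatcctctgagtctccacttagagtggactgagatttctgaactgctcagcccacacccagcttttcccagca
Isg15, chr4:156200769-156201068, minus strand: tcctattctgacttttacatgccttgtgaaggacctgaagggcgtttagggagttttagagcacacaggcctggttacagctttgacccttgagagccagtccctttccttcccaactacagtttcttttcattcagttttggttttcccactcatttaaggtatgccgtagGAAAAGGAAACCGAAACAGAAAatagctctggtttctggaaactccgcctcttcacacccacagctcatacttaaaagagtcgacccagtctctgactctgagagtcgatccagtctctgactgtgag
Ifitm3, chr7:141010695-141010994, minus strand: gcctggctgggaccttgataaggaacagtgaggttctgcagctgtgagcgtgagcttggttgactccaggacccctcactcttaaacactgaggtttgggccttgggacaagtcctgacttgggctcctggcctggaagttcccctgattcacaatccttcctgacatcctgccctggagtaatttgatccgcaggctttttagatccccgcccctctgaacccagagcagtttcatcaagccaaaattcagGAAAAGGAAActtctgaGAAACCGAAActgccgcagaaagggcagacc
Gbp2, chr3:142620413-142620712, plus strand: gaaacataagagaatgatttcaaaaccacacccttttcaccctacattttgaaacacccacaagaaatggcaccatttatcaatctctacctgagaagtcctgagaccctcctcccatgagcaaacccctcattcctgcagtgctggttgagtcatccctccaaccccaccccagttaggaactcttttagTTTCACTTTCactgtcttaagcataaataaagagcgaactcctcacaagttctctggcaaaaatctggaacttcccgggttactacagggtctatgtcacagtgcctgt
Igtp, chr11:58199306-58199605, plus strand: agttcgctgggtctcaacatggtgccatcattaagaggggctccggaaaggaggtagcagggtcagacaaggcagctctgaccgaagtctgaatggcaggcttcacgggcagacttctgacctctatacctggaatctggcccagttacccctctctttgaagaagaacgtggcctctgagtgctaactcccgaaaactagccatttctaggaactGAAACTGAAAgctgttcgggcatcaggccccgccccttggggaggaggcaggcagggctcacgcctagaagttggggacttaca
The match of Cxcl10 began 213 bases before the start, those of Ifit3 156 and 122 bases before it, that of Gbp2 59 bases before it and that of Igtp 34 bases before it. Isg15 held 3 matches that overlap one another, the first beginning 78 bases before the start, and both matches of Ifitm3 lay just after the start. The windows of Ifitm1, Xaf1 and Ifi44, on which the results turn as well, held 0 matches and are not printed.

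RefSeq promoters were at hand for 28 of the 37 members. The core matched in 17 of these 28 genes (60.7%), against 3.99% of all 27025 genes with a promoter, searched the same way on both strands. A second pattern, TTCNNNGAA, the palindromic core of the gamma-activated site, matched in 8 of the 28 (28.6%) against 9.55% of all genes; matches of the 2 patterns may overlap. The response element was found in members of each direction: with MPP+ in wild type it was in 6 of 9 members that rose, 3 of 4 that fell and 8 of 15 that passed the test in neither direction. A match describes these letters in this window and is not a measured binding site.

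Library totals ran from 64249029 to 69865569 counts, and all 37 members passed the filter on low counts, which left 21129 genes. Levels are counts per 1000000 reads (CPM), with library sizes scaled by TMM; values of 3 libraries are in the order of the labels' replicate numbers. Arrb2 itself stood at 30.97, 26.4 and 21.7 CPM in wild type with PBS, 24.2, 17.2 and 17.5 with MPP+, 14.4, 16.1 and 13.8 in the knockout with PBS and 15.1, 12.6 and 12.1 with MPP+. It was lower in the knockout by edgeR's quasi-likelihood test in PBS (log2 fold change -0.83 ± 0.16 standard error, adjusted p = 0.0084) and in MPP+ (-0.57 ± 0.16, adjusted p = 0.0363), and RNA of the gene remained in every knockout library. The latter call was lost in 11 of 22 alternatives. Markers of astrocytes, 10 in all, were present throughout. Their sum was 5811 to 6656 CPM in wild type with PBS and 4271 to 5395 in the knockout with PBS, without overlap. With MPP+ the sum was 1825 to 2419 CPM in wild type and 1626 to 1931 in the knockout. Of the 10 markers, 9 were lower with MPP+ in each genotype. Markers of microglia and macrophages, 18 in all and none at 0 in every library, were also present, and their sum was 1210 to 1803 CPM in wild type with PBS, 694 to 905 with MPP+, 814 to 1126 in the knockout with PBS and 433 to 633 with MPP+. Markers of fibroblasts and meningeal cells, 8 in all, summed to 414 to 1179 CPM in wild type with PBS and 246 to 620 with MPP+, and to 1447 to 1814 and 1275 to 1850 in the knockout. Y-linked RNA of 4 genes summed to at most 0.23 CPM in the wild-type libraries and to 39.4 to 131 CPM in the knockout libraries. Of these, Ddx3y was lower in knockout library 1 (16.7 CPM with PBS, 18.9 with MPP+) than in libraries 2 and 3 (56.06 to 59.25). Xist, expressed in female cells, stood at 787 to 868 CPM in wild type with PBS and 1195 to 1415 with MPP+. In the knockout it stood at 393 to 572 and 635 to 913, so every knockout library held both Xist and Y-linked RNA. The mix of sexes thus differed between genotypes, and sex and genotype cannot be told apart. In bulk RNA, fewer cells of a type and less RNA per cell cannot be told apart either, and the part that these shifts have in the results below was not tested.

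Per length of transcript, the members covered a wide range in untreated wild-type cells. In FPKM, which divides the count by transcript length and library size, the highest were Ifitm3 at 333 ± 5.44 (mean ± SD, n = 3), Ifitm2 at 232 ± 6.05, Ifi27 at 86.4 ± 2.32, Bst2 at 84.9 ± 6.05 and Ifit3 at 62.8 ± 3.87. The lowest were Mx1 at 0.169 ± 0.0264, Zbp1 at 0.294 ± 0.0393 and Mx2 at 0.750 ± 0.242 FPKM. The median member stood at 7.72 FPKM, 15 members were at 10 FPKM or more and 3 were under 1 FPKM. So 2 of the 3 IFITM membrane proteins, which block viral entry, were abundant at rest, with Ifitm1 far below them at 11.2 ± 0.641 FPKM, whereas the Mx antiviral GTPases were at the bottom of the range.

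With MPP+ the set did not move as a block: some of its best-known genes rose, others fell, and the member transcription factors passed the test in neither direction. Ifit3, Isg15, Ifi44, Usp18, Xaf1, Ifitm3, Gbp7 and Cxcl10 rose in both genotypes, whereas Ifitm1, Ifitm2, Iigp1 and Irgm1 fell in both. Of the 37 members, 10 rose and 8 fell in wild type (edgeR's quasi-likelihood test, Benjamini-Hochberg adjusted p under 0.05 over all tested genes), and 10 rose and 4 fell in the knockout. Over all 21129 tested genes, 26.8% were called higher and 28.4% lower in wild type (55.2% in either direction), and 23.1% and 24.7% in the knockout (47.7%). The members' share of calls is therefore not above that of genes at large and is not a result about the set; what follows concerns single genes. The median log2 fold change of the members was 0.00 in wild type and 0.05 in the knockout, beside -0.04 over all tested genes in each. Values of the PBS and MPP+ libraries did not overlap for 20 members in wild type and 18 in the knockout, beside 62.9% and 59% of all tested genes.

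**Figure D1:**
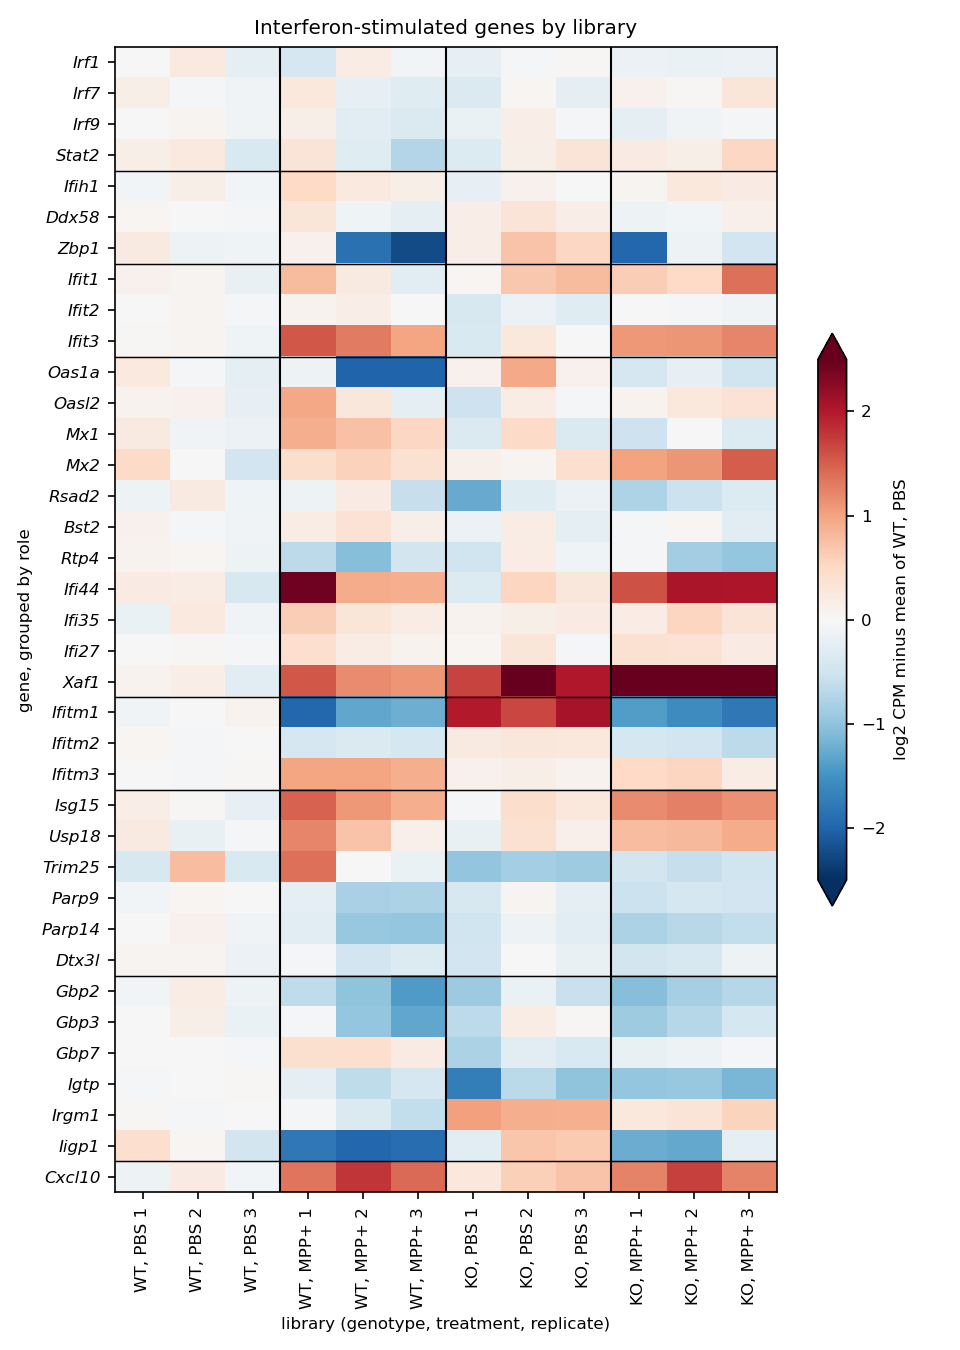
Heat map of 37 interferon-stimulated genes (vertical axis, grouped by role) in the 12 libraries (horizontal axis); colour gives log2 CPM minus the mean of the wild-type PBS libraries, red for higher and blue for lower. Ifit3, Isg15, Ifi44, Xaf1 and Cxcl10 are red in all 6 MPP+ libraries, whereas Ifitm1 and Iigp1 are blue there.

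The interferon genes that could be counted were hardly detected. Of 14 ligand symbols searched, 4 were matched, namely Ifnb1, Ifna2, Ifnk and Ifnz. The other 10, among them Ifng for interferon gamma, were not analysed here. Ifnb1, the beta interferon, had 7 counts in the knockout PBS library 2 and 0 in the other 11 libraries, and 0 counts over the 3 libraries of a group allow up to 0.0155 CPM. Ifna2, an alpha interferon, had 4 counts in 1 wild-type MPP+ library, Ifnk had 4 counts in 1 wild-type PBS library, and Ifnz had 1 to 7 counts in every library. No ligand passed the filter on low counts, so none was tested, and these limits cover counting error only.

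The receptors, in contrast, were expressed. Of 9 genes for receptor chains and their kinases, 6 rose and 0 fell with MPP+ in wild type, and 4 rose and 0 fell in the knockout. Over all tested genes 26.8% were higher and 28.4% lower in wild type, and 23.1% and 24.7% in the knockout. Ifngr2, the signalling chain of the interferon gamma receptor, stood at 49.2, 41.2 and 40.1 CPM in wild type with PBS and 129, 133 and 139 with MPP+, and at 47.2, 46.7 and 50.2 and 99.9, 114 and 105 in the knockout. The groups did not overlap, and the log2 fold change was 1.62 ± 0.08 in wild type (edgeR adjusted p = 3.63e-08) and 1.14 ± 0.08 in the knockout (edgeR adjusted p = 5.98e-07). Tyk2 rose by 0.81 ± 0.07 and 0.55 ± 0.07, Jak2 by 0.61 ± 0.05 and 0.48 ± 0.05, and Ifnlr1, the lambda interferon receptor, by 1.17 ± 0.27 and 1.39 ± 0.28, all log2 and in the order wild type, knockout. Ifnar2 and Ifngr1 rose in wild type by 0.25 ± 0.09 and 0.22 ± 0.07, and Ifnar1 had 0.00 ± 0.11 in wild type and 0.00 ± 0.11 in the knockout. The kinase Jak1 had -0.01 ± 0.06 and 0.04 ± 0.06, and Il10rb, a receptor chain shared with interleukin 10, had 0.15 ± 0.15 and -0.14 ± 0.15, none of them called.

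The member transcription factors Irf1, Irf7, Irf9 and Stat2, which carry the signal to the response element, were called in none of the 5 contrasts by edgeR, DESeq2 or limma, and none reached an unadjusted p under 0.05 in the 20 tests of edgeR. Irf9 ranged from 38.2 to 54.9 CPM over the 12 libraries, Irf1 from 18.9 to 29.6, Irf7 from 5.21 to 8.22 and Stat2 from 23.3 to 55.6. Irf9 changed by -0.15 ± 0.13 with MPP+ in wild type and -0.11 ± 0.13 in the knockout, and Stat2 by -0.19 ± 0.26 and 0.23 ± 0.26 on the log2 scale, and a missed threshold does not show that they stayed level. Without 1 library, wild type with MPP+ 1, Irf9 was called lower in wild type (-0.32, edgeR adjusted p = 0.0206).

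Among the nucleic acid sensors, Ifih1, which detects long double-stranded RNA, rose slightly in wild type. It stood at 35.2, 40.9 and 35.4 CPM with PBS and 52.3, 43.97 and 41.03 with MPP+, and at 32.2, 39.99 and 37.2 and 39.1, 44.3 and 42.6 in the knockout. The wild-type groups did not overlap, by a small margin, and the log2 fold change was 0.30 ± 0.11 (edgeR adjusted p = 0.0366), against 0.20 ± 0.11 in the knockout (edgeR adjusted p = 0.152). Ddx58, which detects uncapped RNA ends, ranged from 69.5 to 102.5 CPM over the 12 libraries and was not called. Zbp1, a sensor of Z-form nucleic acid, stood at 1.36, 1.05 and 1.08 CPM in wild type with PBS and 1.24, 0.317 and 0.246 with MPP+, and its MPP+ library 1 lay with the PBS libraries while the others were far below. Its log2 fold change of -0.95 ± 0.58 was not called, and without that library it was -2.04 (edgeR adjusted p = 0.00534).

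The IFIT proteins bind viral RNA and lie side by side on chromosome 19. Ifit3 (ENSMUSG00000074896, chr19:34583531-34588731, plus strand) stood at 124, 128 and 114 CPM in wild type with PBS and 357, 298 and 242 with MPP+. In the knockout it stood at 92.8, 146 and 121 with PBS and 257, 263 and 284 with MPP+. All 6 MPP+ libraries exceeded all 6 PBS libraries, with a log2 fold change of 1.30 ± 0.16 in wild type (edgeR adjusted p = 3.36e-05) and 1.16 ± 0.16 in the knockout (edgeR adjusted p = 0.000105). Its neighbour Ifit2, also an RNA-binding protein, stood at 117, 122 and 113 and 125, 133 and 117 CPM in wild type with PBS and MPP+, and at 88.6, 106 and 95.3 and 117, 114 and 109.9 in the knockout. The wild-type groups overlapped (0.09 ± 0.07, edgeR adjusted p = 0.34) and the knockout groups did not (0.23 ± 0.07, edgeR adjusted p = 0.0198). Ifit1, which binds RNA lacking cap methylation, ranged from 24.8 to 79.0 CPM and was not called. Its changes were 0.30 ± 0.29 in wild type and 0.35 ± 0.29 in the knockout, and differences between the 3 neighbours were not tested. Ifit1 and Ifit3 have related genes (Ifit1bl1, Ifit3b), and differences in response between them were not tested. Ifit3b stood at 48.3, 50.6 and 44.1 CPM in wild type with PBS and 69.25, 48.05 and 37.6 with MPP+. In the knockout it stood at 31.2, 55.8 and 48.05 and 52.6, 56.1 and 64.03, so its groups overlapped in both genotypes. Ifit1bl1 went from 2.73, 3.63 and 2.37 to 0.650, 0.483 and 0.261 CPM in wild type. In the knockout it went from 2.30, 1.68 and 2.35 to 1.15, 0.490 and 0.840 CPM. How reads shared between such genes were counted is not given in the sources used here, so the values of Ifit1 and Ifit3 are uncertain to that extent.

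Of the 11 members grouped as OAS, Mx and other antiviral effectors, 3 rose and 1 fell in wild type, and 3 rose and 0 fell in the knockout. Among all tested genes 26.8% were called higher and 28.4% lower in wild type, and 23.1% and 24.7% in the knockout. The counts therefore give no direction for this group. Ifi44, an antiviral protein of the cytoplasm, stood at 12.5, 12.3 and 8.27 CPM in wild type with PBS and 58.7, 20.6 and 20.5 with MPP+, and at 8.60, 15.8 and 13.2 and 32.9, 44.8 and 44.04 in the knockout. Every MPP+ library exceeded every PBS library, although wild-type MPP+ library 1 stood far above the other two (1.59 ± 0.39 in wild type, edgeR adjusted p = 0.00462; 1.69 ± 0.39 in the knockout, edgeR adjusted p = 0.00381). Xaf1, which binds the apoptosis inhibitor Xiap and promotes cell death, stood at 16.3, 17.2 and 12.7 CPM in wild type with PBS and 45.1, 34.6 and 32.9 with MPP+. Its knockout values were 49.6, 87.7 and 61.4 with PBS and 87.5, 96.1 and 108 with MPP+, where the highest PBS library touched the MPP+ range. The log2 rise was 1.28 ± 0.20 in wild type (edgeR adjusted p = 0.000221) and 0.56 ± 0.20 in the knockout (edgeR adjusted p = 0.0374).

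Mx2, a dynamin-like antiviral GTPase, rose in the knockout: it stood at 4.07, 2.92 and 2.11 and 3.99, 4.34 and 3.83 CPM in wild type with PBS and MPP+, and at 3.22, 3.08 and 3.92 and 5.90, 6.33 and 8.36 in the knockout. The wild-type groups overlapped (0.42 ± 0.23, edgeR adjusted p = 0.145), the knockout groups did not (1.01 ± 0.23, edgeR adjusted p = 0.00343), and the difference between genotypes in this response was not called (0.59 ± 0.32, edgeR adjusted p = 0.377). Ifi35, a leucine zipper protein of the response, stood at 17.8, 23.3 and 18.8 CPM in wild type with PBS and 30.3, 24.5 and 22.6 with MPP+, with overlapping groups, and rose by 0.37 ± 0.14 (edgeR adjusted p = 0.0377), against 0.20 ± 0.14 in the knockout (edgeR adjusted p = 0.245). Rtp4, a receptor-transporting protein, went the other way, from 12.9, 12.6 and 11.1 to 7.70, 5.79 and 8.83 CPM in wild type without overlap (-0.71 ± 0.26, edgeR adjusted p = 0.0362), and from 8.62, 13.9 and 11.3 to 11.96, 6.63 and 6.23 in the knockout with overlap (-0.45 ± 0.26, edgeR adjusted p = 0.184). Rtp4 overlaps Masp1 on the opposite strand by 525 bases, and whether counting used strand is not given in the sources used here. Oas1a, an enzyme that makes the activator of the antiviral nuclease RNase L, was not called; it stood at 8.23, 6.77 and 5.94 CPM in wild type with PBS and 6.32, 1.72 and 1.74 with MPP+, where library 1 again lay with the PBS libraries, and without that library it was lower by -2.01 on the log2 scale (edgeR adjusted p = 0.000132). The other uncalled members with MPP+ in this group were Oasl2 (32.7 to 91.7 CPM over all libraries), Mx1 (0.510 to 1.36), Rsad2 (3.92 to 11.0), Bst2, the tether that holds budding virus (70.2 to 108.6), and Ifi27 (136.9 to 188.9).

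The 3 IFITM proteins, small membrane proteins that hinder fusion of viruses with the cell, are neighbours on chromosome 7 and went opposite ways. Ifitm3 (ENSMUSG00000025492, chr7:141009586-141010770, minus strand) stood at 252, 246 and 255 CPM in wild type with PBS and 496, 496 and 474 with MPP+, and at 269, 277 and 266 and 355, 362 and 286 in the knockout. The groups did not overlap in either genotype: it rose by 0.96 ± 0.08 in wild type (edgeR adjusted p = 1e-06) and by 0.30 ± 0.08 in the knockout (edgeR adjusted p = 0.00639). Ifitm1 (ENSMUSG00000025491, chr7:140967221-140969825, plus strand) stood at 12.9, 13.7 and 14.4 CPM in wild type with PBS and 3.49, 5.58 and 5.89 with MPP+. The knockout libraries started higher, at 53.96, 43.4 and 56.98 CPM with PBS, and ended at 5.16, 4.60 and 3.95 with MPP+. It fell by 1.46 ± 0.18 on the log2 scale in wild type (edgeR adjusted p = 4.07e-05) and by 3.49 ± 0.20 in the knockout (edgeR adjusted p = 9.8e-08), and ended between 3.49 and 5.89 CPM in both genotypes. Ifitm2 (ENSMUSG00000060591, chr7:140954837-140955987, minus strand) stood at 174, 164 and 168 CPM in wild type with PBS and 126, 131 and 125 with MPP+, and at 196, 204 and 202 and 124, 121 and 107 in the knockout. Its groups did not overlap, and it fell by 0.41 ± 0.06 (edgeR adjusted p = 0.000115) and by 0.78 ± 0.06 (edgeR adjusted p = 9.47e-07). The 3 genes are close in sequence, so reads shared between them are an uncertainty here as for the IFIT genes.

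Ifitm1 and Ifitm3 were also the 2 members whose response to MPP+ differed between genotypes. The interaction, taken as the knockout's log2 change less the wild-type one, was -2.04 ± 0.26 for Ifitm1 (edgeR adjusted p = 0.0093) and -0.66 ± 0.11 for Ifitm3 (edgeR adjusted p = 0.0201). Of the 37 members, 2 were lower and 0 higher in this contrast, where 1.35% of all tested genes were called (0.748% lower and 0.601% higher); none of the 19 members with a positive value reached an unadjusted p under 0.05 or was called by DESeq2 or limma. Ifitm2 had -0.37 ± 0.08 (edgeR adjusted p = 0.0574) and was called by DESeq2. Ifitm1 was called in all 21 alternatives, whereas Ifitm3 was called in 15 of 21, its call being lost without any 1 of 6 libraries: wild type with PBS 1, 2 or 3, wild type with MPP+ 2, and knockout with PBS 1 or 3.

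**Figure D2:**
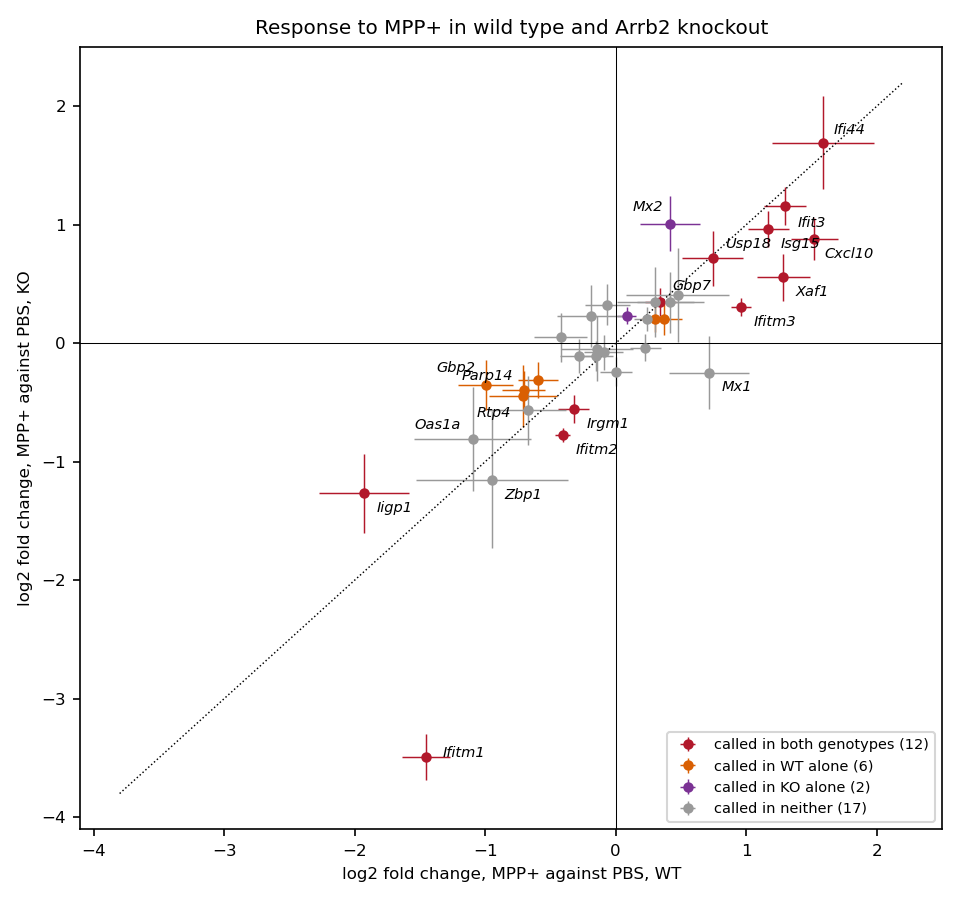
Log2 fold change with MPP+ in wild type (horizontal axis) and in the knockout (vertical axis) for the 37 members; bars are standard errors, the dotted line marks equal change, and colour shows in which genotype a gene was called. Ifitm1, at -1.46 and -3.49, lies farthest below the line, and 12 members were called in both genotypes, 6 in wild type alone, 2 in the knockout alone and 17 in neither.

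Isg15 is a ubiquitin-like protein that is joined to other proteins and also secreted, and Usp18 removes it and restrains the interferon receptor. Isg15 (ENSMUSG00000035692, chr4:156199424-156200818, minus strand) stood at 16.5, 15.1 and 12.9 CPM in wild type with PBS and 40.9, 31.5 and 27.9 with MPP+, and at 14.4, 19.9 and 17.7 and 33.7, 35.3 and 32.4 in the knockout. All 6 MPP+ libraries were above all 6 PBS libraries, a rise of 1.17 ± 0.16 in wild type (edgeR adjusted p = 5.88e-05) and 0.96 ± 0.15 in the knockout (edgeR adjusted p = 0.000323). Usp18 stood at 16.4, 12.3 and 13.7 and 32.6, 23 and 15.4 CPM in wild type with PBS and MPP+, and at 12.4, 18.2 and 15.3 and 24.1, 24.6 and 26.7 in the knockout. The wild-type groups overlapped and the knockout groups did not, with rises of 0.74 ± 0.23 (edgeR adjusted p = 0.0175) and 0.72 ± 0.23 (edgeR adjusted p = 0.0239).

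The ADP-ribosyltransferases went the opposite way to Isg15 in wild type. Parp14 stood at 78.6, 86.1 and 74.6 CPM in wild type with PBS and 65.2, 41.1 and 40.5 with MPP+, and fell by 0.70 ± 0.17 (edgeR adjusted p = 0.00344). In the knockout it stood at 56.5, 72.5 and 65.02 and 45.8, 49.5 and 52.02 CPM (-0.40 ± 0.16, edgeR adjusted p = 0.0672). Parp9, which works in a complex with the ubiquitin ligase Dtx3l, stood at 49.6, 54.3 and 52.7 and 43.9, 29.6 and 30.1 CPM in wild type, where it fell by 0.60 ± 0.15 (edgeR adjusted p = 0.0055), and at 39.6, 54.7 and 44.5 and 36.02, 38.2 and 37.7 in the knockout (-0.31 ± 0.15, edgeR adjusted p = 0.112). The groups of both genes were apart in each genotype. Dtx3l, which overlaps Parp9 on the opposite strand by 682 bases, ranged from 30.5 to 44.7 CPM and was not called. Trim25, the ubiquitin ligase that activates the sensor Ddx58, stood at 40.5, 91.8 and 41.2 CPM in wild type with PBS and 139.9, 53.4 and 47.8 with MPP+, and at 27.2, 29.7 and 28.7 and 39.2, 36.05 and 38.1 in the knockout. It was high in 1 library of each wild-type group and was not called in any contrast; without wild-type MPP+ library 1 it was lower in the knockout with PBS (-1.02, edgeR adjusted p = 0.0307).

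The interferon-inducible GTPases, which act on the membranes around intracellular pathogens, had calls in both directions. Of 6, 1 rose and 3 fell in wild type, and 1 rose and 2 fell in the knockout, beside 26.8% higher and 28.4% lower of all tested genes in wild type and 23.1% and 24.7% in the knockout, so the counts give no direction for the family. Iigp1 had the steepest fall of the 6 in both genotypes. It stood at 10.6, 8.21 and 5.72 CPM in wild type with PBS and 2.31, 2.02 and 2.11 with MPP+, a fall without overlap (-1.93 ± 0.34, edgeR adjusted p = 0.000541). In the knockout it stood at 6.61, 12.8 and 12.5 and 3.35, 3.26 and 6.65, where 1 MPP+ library overlapped the PBS range (-1.27 ± 0.33, edgeR adjusted p = 0.00816). Gbp2, a guanylate-binding protein, stood at 52.9, 63.2 and 50.9 and 35.5, 27.6 and 20.8 CPM in wild type and fell there without overlap (-0.99 ± 0.21, edgeR adjusted p = 0.00181). Its knockout values were 29.5, 49.6 and 37.8 and 26.6, 31.1 and 33.8, with overlap (-0.35 ± 0.21, edgeR adjusted p = 0.193), and its interaction was not called (0.64 ± 0.29, edgeR adjusted p = 0.291).

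Gbp7, from the same cluster as Gbp2 on chromosome 3, rose instead. It stood at 38.5, 38.6 and 37.2 and 50, 51 and 43.7 CPM in wild type with PBS and MPP+, and at 21.9, 31.6 and 29.4 and 33.3, 34.8 and 37.3 in the knockout. The groups did not overlap in either genotype, and the rises were nearly the same size, 0.34 ± 0.12 (edgeR adjusted p = 0.0288) and 0.35 ± 0.12 (edgeR adjusted p = 0.0309). Gbp3, between them in the cluster, ranged from 18.2 to 50.9 CPM; it was not called (-0.67 ± 0.29 in wild type), and without wild-type MPP+ library 1 it was lower by -1.12 (edgeR adjusted p = 0.00218). Irgm1, which steers other GTPases of its family away from the cell's own membranes, stood at 66.3, 64.1 and 65.5 and 62.98, 51.2 and 42.6 CPM in wild type, and at 132, 123 and 121 and 78.4, 81.8 and 96.2 in the knockout. It fell in both genotypes, by 0.32 ± 0.12 (edgeR adjusted p = 0.0411) and by 0.56 ± 0.12 (edgeR adjusted p = 0.00263), without overlap in either. Reads shared among the Gbp and Irg families are an uncertainty for these values.

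Cxcl10, the chemokine that draws T cells through the receptor Cxcr3, was the member with the second-steepest rise in wild type, after Ifi44. The rank of Ifi44 depends on the libraries used, as its log2 rise in wild type ran from 0.89 to 1.85 over 22 alternatives. Cxcl10 (ENSMUSG00000034855, chr5:92346638-92348882, minus strand) stood at 6.97, 8.81 and 7.23 CPM in wild type with PBS and 19.2, 26.4 and 20.4 with MPP+, and at 9.20, 11.5 and 12.6 and 18.1, 24.9 and 17.9 in the knockout. No PBS library reached any MPP+ library, and the rise was 1.52 ± 0.18 in wild type (edgeR adjusted p = 2.32e-05) and 0.88 ± 0.18 in the knockout (edgeR adjusted p = 0.00164). The difference between genotypes in this rise was not called (-0.64 ± 0.25, edgeR adjusted p = 0.212). Cxcl10 lies within Art3, a gene on the opposite strand with few counts.

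Of the 18 calls with MPP+ in wild type, 12 remained in all 22 alternatives; those of Ifih1, Rtp4, Ifi35, Usp18, Gbp7 and Irgm1 were lost in 3 to 12 of them. Leaving out wild-type PBS library 1, 2 or 3 ended 5, 4 and 5 of the calls, and leaving out MPP+ library 1, 2 or 3 ended 5, 5 and 1. In the knockout 10 of 14 calls remained in all 22, and those of Ifit2, Xaf1, Usp18 and Gbp7 were lost in 2 to 5: leaving out knockout PBS library 1 or 3 ended 4 and 2 calls, and knockout MPP+ library 1, 2 or 3 ended 1, 2 and 3.

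**Figure D3:**
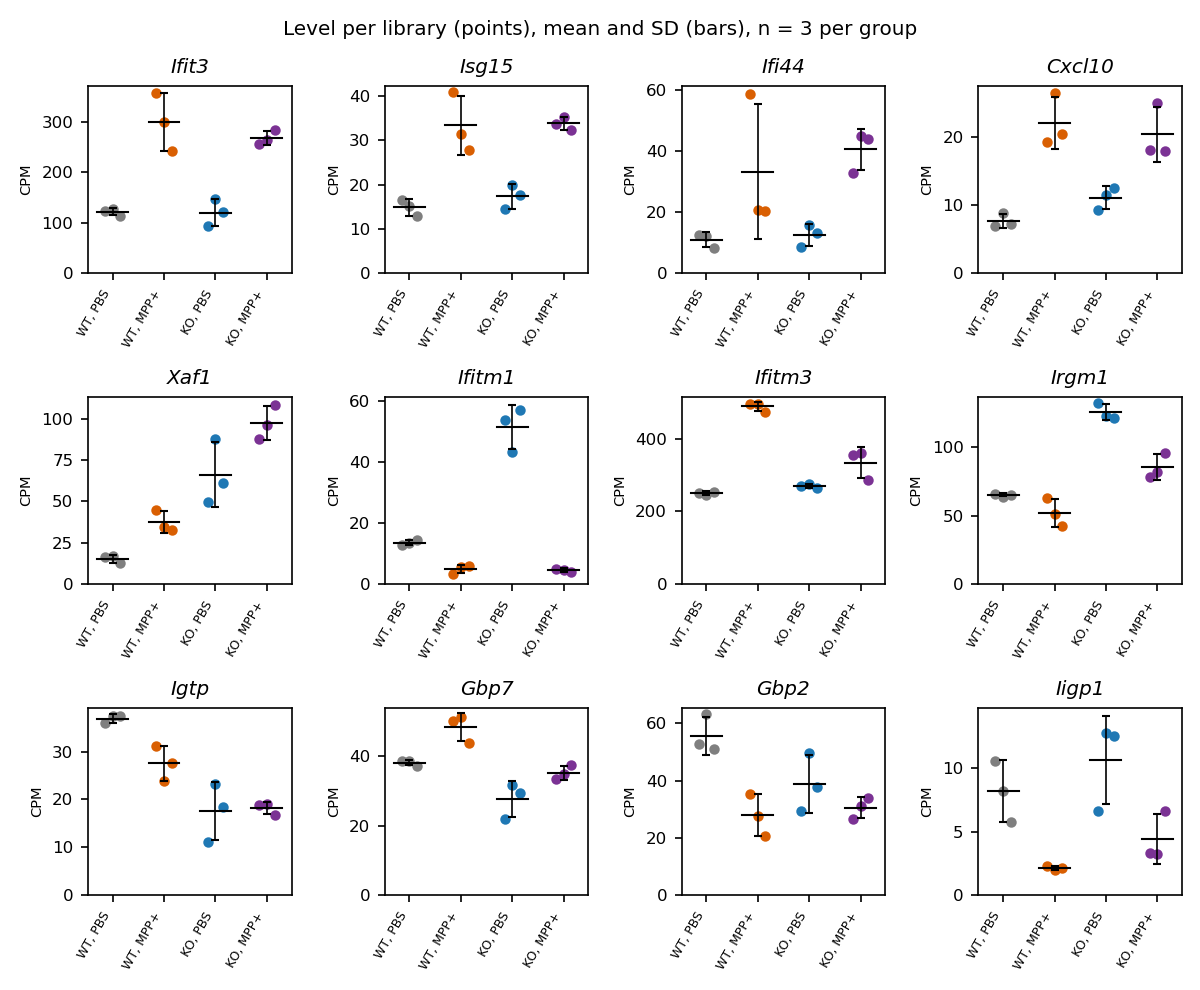
CPM (vertical axes, from 0) of 12 members in the 4 groups (horizontal axes); points are libraries, the long bar is the mean and the error bar the SD of 3 libraries. Ifit3, Isg15 and Cxcl10 are higher in all MPP+ libraries, Ifitm1 is at 43.4 to 57.0 CPM in the knockout with PBS alone, and Xaf1 and Irgm1 are higher and Igtp lower in the knockout with PBS.

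Between genotypes without the toxin, few members differed, but some did so by a wide margin. Xaf1, Ifitm1, Irgm1 and Ifitm2 were higher and Igtp, Gbp7 and Ifit2 lower in the knockout with PBS, so 4 of 37 were higher and 3 lower, beside 11% of all tested genes called in either direction (5.34% higher and 5.66% lower). Of all genes called here 48.6% were higher, and 35.5% with scaling by total counts; the 7 calls of members and their directions were the same with both. The values behind these differences are those given above. Xaf1 was 2.10 ± 0.21 higher (edgeR adjusted p = 0.00017), with the lowest knockout library at 49.6 CPM and the highest wild-type library at 17.2. Ifitm1 was 1.91 ± 0.18 higher (edgeR adjusted p = 0.000151) and Irgm1 0.94 ± 0.12 (edgeR adjusted p = 0.000914), with no overlap for either. The knockout PBS libraries that set this difference of Ifitm1 also enter its change with MPP+ in the knockout and its interaction. For Ifitm2 the difference was 0.25 ± 0.06 (edgeR adjusted p = 0.0195), also without overlap.

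Igtp, an immunity-related GTPase of the endoplasmic reticulum, stood at 35.9, 37.4 and 37.4 CPM in wild type with PBS and 31.1, 23.8 and 27.7 with MPP+, and at 11.1, 23.2 and 18.4 and 18.8, 19.03 and 16.7 in the knockout. Every knockout library was below every wild-type library, and the difference was -1.07 ± 0.21 with PBS (edgeR adjusted p = 0.00799) and -0.60 ± 0.21 with MPP+ (edgeR adjusted p = 0.0692). The annotated span of Igtp shares 7974 bases with Irgm2 on the same strand, so reads may be split between them. Irgm2, also an immunity-related GTPase, was lower in the knockout with PBS too, by -1.23 ± 0.16 (edgeR adjusted p = 0.000824). Gbp7 was -0.46 ± 0.12 (edgeR adjusted p = 0.0282) and Ifit2 -0.28 ± 0.07 (edgeR adjusted p = 0.0289), both without overlap. Groups did not overlap for 14 of 37 members here, beside 33.8% of all tested genes. The 4 calls of Xaf1, Ifitm1, Irgm1 and Igtp remained in all 22 alternatives, and those of Ifit2, Ifitm2 and Gbp7 were lost in 5 to 7. Leaving out wild-type PBS library 1, 2 or 3 ended 2, 3 and 2 of them, and leaving out knockout PBS library 1, 2 or 3 ended 3, 1 and 3.

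With MPP+ in both genotypes, 3 members were higher and 3 lower in the knockout, beside 16.9% of all tested genes called (7.87% higher and 9% lower). Xaf1 (1.37 ± 0.20, edgeR adjusted p = 0.00141) and Irgm1 (0.71 ± 0.12, edgeR adjusted p = 0.0034) were higher here as they were with PBS, and Mx2 was higher with MPP+ (0.76 ± 0.23, edgeR adjusted p = 0.0427). Ifitm3 was lower (-0.55 ± 0.08, edgeR adjusted p = 0.0011), as was Gbp7 (-0.46 ± 0.12, edgeR adjusted p = 0.0232), both without overlap. Ifitm1, so far apart with PBS, had a difference of -0.12 ± 0.18 with MPP+ (edgeR adjusted p = 0.712). Mx1, an antiviral GTPase of the nucleus in mice, stood at 0.850, 0.689 and 0.662 CPM in wild type with PBS and 1.36, 1.21 and 1.05 with MPP+, and at 0.569, 1.01 and 0.564 and 0.510, 0.721 and 0.575 in the knockout. Its log2 difference with MPP+ was -0.999 with a standard error of 0.306 (edgeR adjusted p = 0.046), without overlap but at levels near 1 CPM. Groups did not overlap for 11 members, beside 33.9% of all tested genes. The calls of Xaf1, Ifitm3 and Irgm1 remained in all 22 alternatives, whereas Mx1 lost its call in 14, Mx2 in 11 and Gbp7 in 3. Leaving out wild-type MPP+ library 2 or knockout MPP+ library 1 or 2 ended the calls of all 3, and leaving out any of the other MPP+ libraries ended those of Mx1 and Mx2. Without wild-type MPP+ library 1, Stat2 (0.80, edgeR adjusted p = 0.0368), Oas1a (1.63, edgeR adjusted p = 0.00251) and Ifi44 (0.98, edgeR adjusted p = 0.0214) were called higher in the knockout.

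Some members that differed lie on chromosome 11, which also carries Arrb2 (chr11:70432635-70440828). Xaf1 begins 1.87 Mb from Arrb2, Igtp 12.2 Mb and Irgm1 21.6 Mb, and the chromosome also holds Irf1, Trim25 and Ifi35, which were not called between genotypes. Of all tested genes within 25 Mb of Arrb2, 14.2% were called between genotypes with PBS and 22.9% with MPP+, beside 10.8% and 16.5% on other chromosomes. The part that this position has in the differences was not tested. Of 18 microglia markers, 7 were lower in the knockout with PBS, and 9 were lower and 1 higher with MPP+. Of 8 fibroblast and meningeal markers, 3 were higher with PBS and 7 with MPP+. Astrocyte markers, 10 in all, had 4 lower with PBS, and 3 higher and 2 lower with MPP+. Among all tested genes 5.34% were higher and 5.66% lower with PBS, and 7.87% and 9% with MPP+. The part of these markers in the members' differences between genotypes was not tested.

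**Figure D4:**
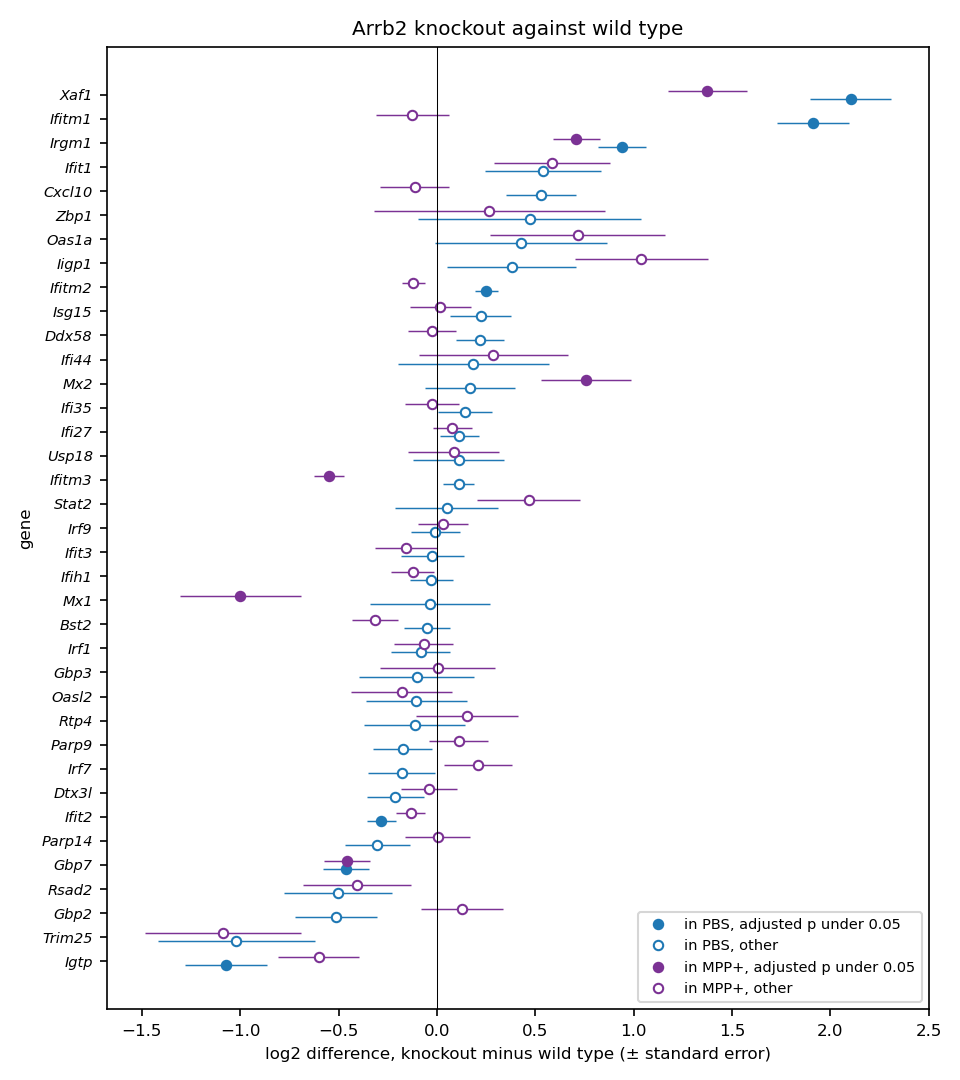
Log2 difference, knockout minus wild type (horizontal axis, points with standard errors), for the 37 members (vertical axis) with PBS and with MPP+; filled points had an adjusted p under 0.05. Xaf1 and Irgm1 are filled to the right and Gbp7 to the left in both, and Ifitm1 moves from 1.91 with PBS to -0.12 with MPP+.

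Within groups, most members lay high together in some libraries and low together in others. For each library the deviation of every member from the mean of the other 2 libraries of its group was taken on the log2 scale. In wild type with MPP+ library 1, 31 of 37 members were above the other libraries, with a median deviation of 0.41, while the median over all tested genes was 0.00. In that library 5 members were at least 2-fold above, namely Zbp1 (2.04), Oas1a (1.85), Ifi44 (1.51), Trim25 (1.47) and Gbp3 (1.07), whereas Ifitm1 (-0.71), Irf1 (-0.47) and Cxcl10 (-0.27) were below. Of all tested genes, 7.49% were at least 2-fold above in that library, the highest such share of the 12 libraries. In the knockout with PBS, 34 of 37 were above in library 2 (median 0.32) and 2 of 37 in library 1 (median -0.38). Of the members that stood out in wild-type MPP+ library 1, Ifi44 also had the steepest rise with MPP+ in both genotypes in the fit of all libraries. In wild type that rise ran from 0.89 to 1.85 over 22 alternatives. The changes of Zbp1 (-0.95 ± 0.58 in wild type and -1.15 ± 0.58 in the knockout) and of Oas1a (-1.10 ± 0.45 and -0.81 ± 0.44) were not called with wild-type MPP+ library 1 in the fit. Without it, Zbp1 was at -2.04 (edgeR adjusted p = 0.00534) and Oas1a at -2.01 (edgeR adjusted p = 0.000132) in wild type. Summed microglia markers in wild type with MPP+ were 905, 856 and 694 CPM in libraries 1, 2 and 3, and fibroblast and meningeal markers 620, 246 and 293; their part in the deviation of library 1 was not tested. Since members of a library share that library, these deviations are a description without a test.

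**Figure D5:**
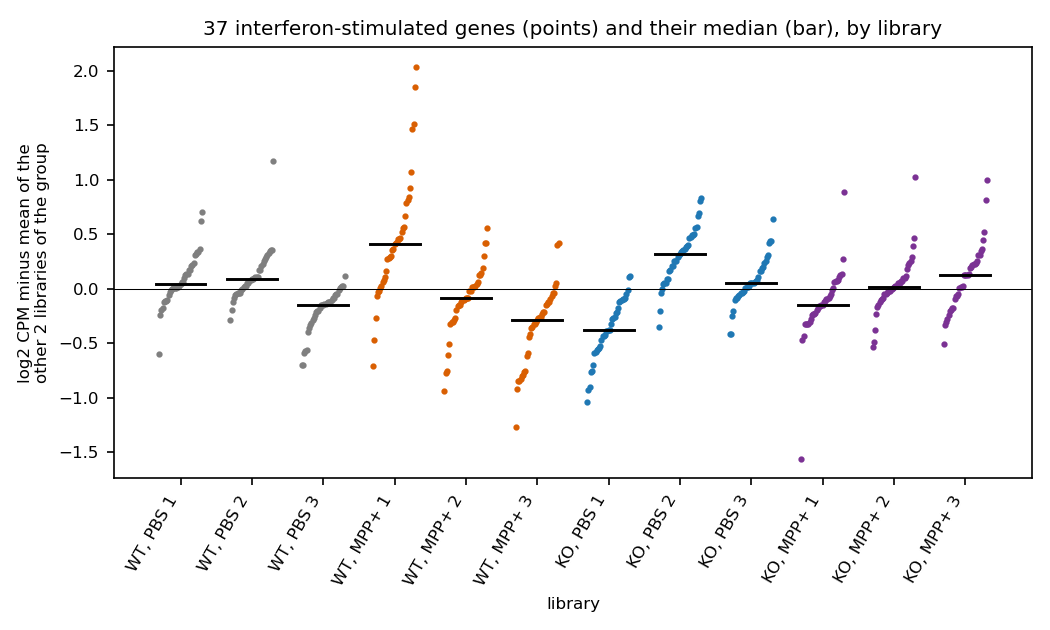
Log2 CPM minus the mean of the other 2 libraries of the group (vertical axis) for the 37 members (points) in each of the 12 libraries (horizontal axis); bars are medians. The medians of wild type with MPP+ 1 (0.41) and knockout with PBS 2 (0.32) lie above 0 and that of knockout with PBS 1 (-0.38) below.

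Leaving out wild-type MPP+ library 1 changed which members were called. In wild type 6 members then rose and 12 fell with MPP+, in place of 10 and 8. In the knockout 10 rose and 10 fell, in place of 10 and 4. The spread is shared by all groups, and the set of tested genes changed as well. Their parts in this were not tested. Of all 21898 genes tested in that fit, 5563 were higher and 6067 lower in wild type, and 5015 and 5480 in the knockout. The members' counts are therefore not a result about the set. The members then also called lower in wild type were Irf9, Zbp1, Oas1a, Dtx3l and Gbp3, and those of the knockout Ddx58, Zbp1, Oas1a, Parp9, Parp14 and Gbp3. Ifit3, Isg15, Ifi44, Xaf1, Ifitm3 and Cxcl10 remained called as higher in wild type without it.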

How the data were processed

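The deposited table gives, per the file headers, a raw read count and an FPKM value (made by the authors) for 32742 genes in 12 libraries; TRIzol RNA went into SMARTER mRNA libraries, per the labels' protocols. The submitters' processing notes name GRCm38 and mm10; which aligner and counter were used is not given in the sources used here. Raw counts went into edgeR 4.0.16 under R 4.3.3 (filterByExpr with a minimum count of 10 and a total of 15, TMM scaling, quasi-likelihood test, 4 group means over 12 libraries, 8 residual degrees of freedom), two-sided, with Benjamini-Hochberg adjustment over 21129 genes in each of 5 contrasts and a threshold of 0.05. Standard errors came from the F statistic. FPKM served to compare levels between genes. A floor of 3 counts and the intervals it gives cover counting error only.

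Members and gene lists were chosen with earlier results of these data known. The receptor and kinase list counted here has 9 genes, and 1 further gene chosen for it is not reported here. Values per library are given for each member called in at least 1 contrast with a mean of at least 1 CPM in its highest group. Alternatives were DESeq2 1.42.0, limma 3.58.1 on log2(FPKM + 1) and log2(FPKM + 0.1), other scalings and filters, a replicate block, only the 2 groups compared, and each library left out.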

Additional observations from a re-analysis of the deposited data

Results flagged for a closer look

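Of the 37 interferon-stimulated genes, 2 responded to MPP+ differently in the genotypes by a test of the difference itself. For Ifitm1 the knockout's log2 change less the wild-type one was -2.04 (edgeR's quasi-likelihood test, adjusted p = 0.0093): it fell in both genotypes, by 3.49 in the knockout and by 1.46 in wild type. For Ifitm3 the difference was -0.66 (edgeR adjusted p = 0.0201): it rose in both genotypes, by 0.30 in the knockout and by 0.96 in wild type. The call of Ifitm3 was lost in 6 of 21 alternatives, whereas that of Ifitm1 remained in all 21. The genotypes also differ in Y-linked RNA and in markers of fibroblasts and meningeal cells, of microglia and of astrocytes, whose part in these differences was not tested.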

How the results depend on the processing

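No member call changed direction in any of 22 alternatives, and 30 of 47 calls remained in each of them; 17 were lost in at least 1. Of 138 results not called, 30 were called in at least 1 alternative and 58 turned sign in at least 1. With only the 2 groups compared, 1 member was lower in the knockout with PBS in place of 3. The lower Arrb2 of the knockout with MPP+ was not called without the filter (-0.54, adjusted p = 0.0743), with only the 2 groups compared (-0.54, adjusted p = 0.0868) or with limma on log2(FPKM + 1) (-0.48, adjusted p = 0.0515). Leaving out 1 library at a time gave 6 to 12 members higher and 6 to 12 lower with MPP+ in wild type, 6 to 11 and 4 to 10 in the knockout, 3 to 4 and 1 to 4 between genotypes with PBS, 2 to 5 and 1 to 4 with MPP+, and 0 to 1 and 1 to 3 in the interaction; Arrb2 ran from -0.97 to -0.72 with PBS and from -0.67 to -0.39 with MPP+. The labels tie same-numbered libraries to no shared source, so the numbers were not used as pairs in the main fit. Correlations of their deviations over all tested genes were low, -0.0192 to 0.0596. Each library matched its own number best in both MPP+ contrasts but not between genotypes, a hint from the data and not the design. Some markers followed the numbers across treatments. Ddx3y stood at 16.7, 56.06 and 59.24 CPM in the knockout with PBS and 18.9, 59.25 and 59.15 with MPP+. Col3a1 stood at 211.8, 34.4 and 86.2 CPM in wild type with PBS and 101.6, 18.1 and 31.4 with MPP+. Low correlations over all genes therefore do not show that same-numbered libraries were independent, and the main fit ignores any such pairing. The replicate block ended the calls of Rtp4 and Irgm1 with MPP+ in wild type and of Mx1 and Mx2 between genotypes with MPP+, and gave 12 members higher and 7 lower with MPP+ in wild type, 10 and 4 in the knockout, 5 and 3 between genotypes with PBS, 2 and 3 with MPP+, and 0 and 2 in the interaction. Over all genes the interaction had 285 calls, 1407 with DESeq2, 148 without the filter and 63 to 1553 leaving out 1 library, the most without wild-type MPP+ library 1. Calls between genotypes with MPP+ went from 3565 to 1968 with only the 2 groups compared and to 2010 to 4746 leaving out 1 library, and with PBS from 2323 to between 1109 and 2753. The share of higher calls with PBS, 48.6%, was 35.5% with total counts and 35.7% or 36.3% with limma. The causes of these shifts were not tested. Depth limits the 4 matched interferon ligands, which had at most 7 counts in a library.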

Other observations

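Beyond the 37 members, genes upstream of interferon production were called in both directions with MPP+, no more often than genes at large. Of 18 sensing adaptors, kinases and factors, 4 rose and 3 fell in wild type, and 4 rose and 2 fell in the knockout (edgeR's quasi-likelihood test), beside 26.8% of all tested genes higher and 28.4% lower in wild type and 23.1% and 24.7% in the knockout. Traf6, Ikbke, Myd88 and Tbk1, which relay signals from nucleic acid sensors and Toll-like receptors, rose in both genotypes, whereas Tlr7 and Tmem173, the adaptor known as Sting, fell in both. In the knockout 3 of the 18 were lower with PBS and the same 3 with MPP+, namely Tlr9, Irf5 and Irf8. Among all tested genes, 5.66% were lower in the knockout with PBS and 9% with MPP+. Irf8, a factor of microglia and macrophages, stood at 20.6, 17.2 and 11.9 CPM in wild type and 7.33, 4.81 and 6.45 in the knockout with PBS (-1.42 ± 0.28, edgeR adjusted p = 0.00805). Microglia markers were lower in the knockout as well, and their part in this was not tested. Of 11 negative regulators, 3 rose and 4 fell in wild type and 3 rose and 3 fell in the knockout, beside the same shares of all genes. Samhd1, which degrades nucleotides needed by viruses, stood at 107, 113 and 109 CPM in wild type with PBS and 83.2, 79.4 and 77.97 with MPP+, and at 107, 105 and 102 and 51.8, 55.1 and 50.2 in the knockout, a deeper fall there (interaction -0.54 ± 0.07, edgeR adjusted p = 0.0121).

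A further list of 61 interferon-stimulated genes, 60 of them tested, held 18 that rose and 15 that fell in wild type, and 12 that rose and 10 that fell in the knockout, beside 55.2% and 47.7% of all tested genes called in either direction. Between genotypes 5 were higher and 9 lower with PBS, and 8 higher and 6 lower with MPP+, beside 11% and 16.9% of all tested genes called. Slfn8, a Schlafen protein, stood at 8.26, 6.34 and 5.48 CPM in wild type with PBS and 0.344, 0.447 and 0.793 in the knockout (-3.66 ± 0.45, edgeR adjusted p = 0.000685), and at 7.59, 5.61 and 3.25 and 0.241, 0.677 and 0.560 with MPP+. Irgm2 fell with MPP+ in wild type, from 55.5, 57.8 and 50.1 to 30.5, 23.9 and 21.7 CPM, and stood at 19.4, 24.8 and 25.4 and 25.3, 24.3 and 32.9 in the knockout (interaction 1.35 ± 0.22, edgeR adjusted p = 0.0201).

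In a split chosen after the values were seen, genes on chromosome 11, which carries Arrb2, were called between genotypes with PBS in 3 of 6 members and 5 of 10 genes of the further list. On other chromosomes the counts were 4 of 31 and 9 of 50. With MPP+ the counts were 2 of 6 and 4 of 10 on chromosome 11, and 4 of 31 and 10 of 50 elsewhere. Of all tested genes with PBS, 14.2% within 25 Mb of Arrb2, 12.4% on the rest of its chromosome and 10.8% on other chromosomes were called. With MPP+ these shares were 22.9%, 19.7% and 16.5%. Several of the counted genes are neighbours, so they are not independent: Igtp and Irgm2 overlap by 7974 bases, and Slfn2, Slfn5 and Slfn8 begin 12.5 to 12.6 Mb from Arrb2. Slfn8 begins 12.6 Mb from Arrb2 and Irgm2 12.2 Mb. The cause of this distribution was not tested.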
